A study of Mus musculus with 2 samples.

Results

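The respiratory chain genes of both genomes were followed in single cells of the mouse inner ear. The members were the 94 of 32285 genes whose symbols name a subunit of complexes I, III, IV or V. They comprised 13 mitochondrially encoded genes (mt-Nd, mt-Co, mt-Cytb and mt-Atp symbols) and 81 nuclear genes (numbered Ndufa, Ndufb, Ndufc, Ndufs and Ndufv symbols, Cox4 to Cox8, Uqcr and Atp5 symbols). The nuclear genes held 36 members of complex I, 8 of complex III, 19 of complex IV, which included Ndufa4, and 17 of complex V. The last was Ndufa4l2, a paralog of Ndufa4 that was placed in no complex. Members were chosen by symbol alone. A member counted as measured with at least 20 UMIs over both libraries. All 13 mitochondrially encoded and 79 nuclear members were measured, and Cox7b2 (10 UMIs in Drug-NIHL, 3 in NIHL) and Cox8c (0 and 1) were not.

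The Drug-NIHL library came from cochleae of wild-type C57BL/6J mice aged 4 to 6 weeks that received a drug, abbreviated VPA in the series title and given at 90 mg/ml, before noise. The NIHL library came from the opposite, untreated ears of the same animals. All ears were exposed to noise of 105 dB in the octave band of 8 to 16 kHz for 2 hours, and tissue was taken 2 days later and dissociated with trypsin. Each library held 5 ears, so no ear came from an animal without the drug or without noise, and each group was 1 sample. The difference between the groups therefore has no replicate check and no test, and every interval given here is an exact 95% interval that covers counting error alone. The labels give neither the route of the drug nor the sex of the animals.

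After filtering, 18622 Drug-NIHL cells and 16038 NIHL cells remained, with 33410361 and 32086291 UMIs and a median of 1162 and 1107 UMIs per cell. The tissue was labelled as sensory epithelium, yet hair cell-like cells made up 0.897% of Drug-NIHL cells and 0.630% of NIHL cells, and Schwann or satellite glia-like cells 21.2% and 41.0%. Cells were grouped into 40 clusters without using the members or any other mitochondrial gene, and clusters were named from marker genes as "X-like" classes. Comparisons were made in 18 classes, those where both libraries had 100 or more cells. Median UMIs per cell were lower in Drug-NIHL in 17 of these 18 classes, all but the neutrophil-like one. CPM of Malat1, a nuclear RNA used as a sign of cells that have lost cytoplasm, was higher in Drug-NIHL in 18 of 18. Summed haemoglobin CPM, a sign of free RNA outside erythroid cells, was higher in 13 of 18, and erythroid cell-like cells were among the 13. The part of these differences in the results below was not tested. Cells with more than 20% mitochondrial UMIs had been left out, 389 of 20522 in Drug-NIHL and 244 of 17667 in NIHL, which caps the mitochondrially encoded sum itself.

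Complex I takes electrons from NADH, complex III passes them to cytochrome c, and complex IV hands them to oxygen. All of these pump protons, and complex V, the ATP synthase, uses the proton gradient to make ATP. Each holds subunits from both genomes: the mitochondrial genome is transcribed into long RNAs that are cut into messengers, while each nuclear gene has its own promoter and its protein is imported. In the cochlea, the stria vascularis, which maintains the potential that drives hair cell transduction, and the auditory neurons are known for a high demand for ATP.

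Across the 18 compared classes, with cells of all depths together, the nuclear members were most abundant in neuron-like cells. The mitochondrially encoded ones were most abundant in Schwann or satellite glia-like and strial cells. Levels are sums of UMIs scaled to all UMIs of a class, in CPM. They come from the 3′ ends of transcripts and are not scaled by length. The nuclear sum was 83805 CPM in Drug-NIHL and 86856 CPM in NIHL in neuron-like cells. It was 67221 and 69287 CPM in strial marginal cell-like cells, which secrete potassium into the endolymph, and 48173 and 47184 CPM in strial intermediate cell or melanocyte-like cells. The lowest nuclear sums were those of erythroid cell-like cells (16763 CPM in Drug-NIHL, 17626 CPM in NIHL) and neutrophil-like cells (17906 and 14660 CPM). The order of the 18 classes was nearly the same in both libraries for the nuclear sum (Spearman's rho 0.965 over the 18 classes) and for the mitochondrially encoded sum (0.917). These classes share a library and its depth, so the coefficients are descriptions.

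The mitochondrially encoded sum was ranked over the named classes alone. It was highest in Schwann or satellite glia-like cells in Drug-NIHL, at 91760 CPM against 63158 CPM in NIHL. Strial marginal cell-like cells had the highest sum of these classes in NIHL, with 82751 CPM in Drug-NIHL and 85828 CPM in NIHL. Strial intermediate cell or melanocyte-like cells followed at 86351 and 78664 CPM. Cluster 12, which stayed unnamed, was outside this ranking and had a higher sum in both libraries. It had 113630 CPM in Drug-NIHL (572 cells) and 99819 CPM in NIHL (349 cells). Neuron-like cells stood near the bottom on this scale, at 30889 CPM in Drug-NIHL and 26986 CPM in NIHL, while their nuclear sum stood at the top. As a result they held 0.369 mitochondrially encoded UMIs per nuclear member UMI in Drug-NIHL and 0.311 in NIHL, against 3.22 and 2.33 in Schwann or satellite glia-like cells. Counted per cell, neuron-like cells had the most of both, since they were the deepest class: 289.7 mitochondrially encoded UMIs per cell in Drug-NIHL and 335.7 in NIHL, and 786 and 1081 nuclear ones, at median depths of 9796.5 and 12830 UMIs.

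**Figure D1:**
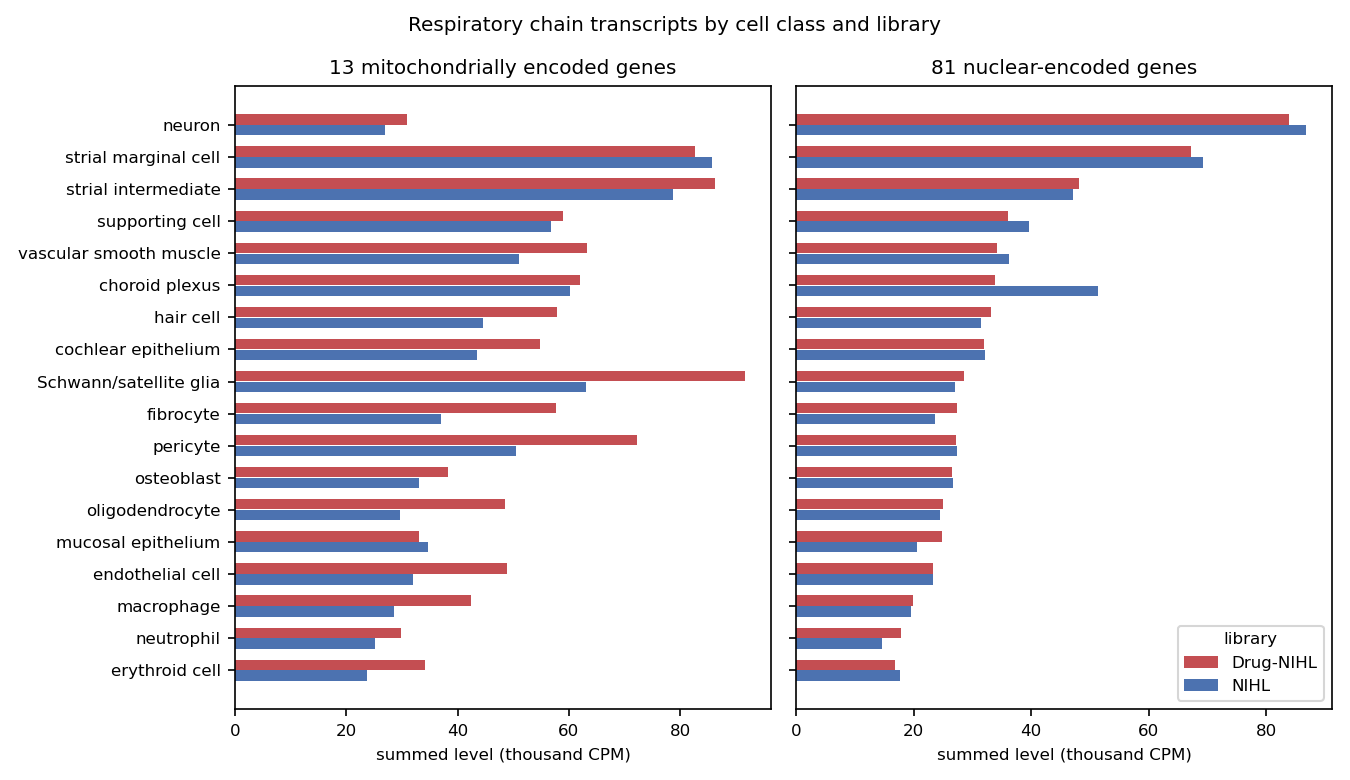
Summed level of the 13 mitochondrially encoded genes (left) and the 81 nuclear genes (right) in CPM divided by 1000 on the horizontal axis, for 18 marker-named cell classes ordered by the nuclear sum of the Drug-NIHL library, with 1 bar per library and with class names shortened and written without "-like". Neuron-like cells lead the right panel with 83805 CPM in Drug-NIHL and 86856 CPM in NIHL and stand near the bottom of the left one.

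The make-up of the mitochondrially encoded UMIs varied little between classes. Shares of UMIs depend on where reads end and are not levels of RNA that can be compared between genes. mt-Atp6, a subunit of the proton channel of complex V, had the largest share, with 19.4% of mitochondrially encoded UMIs in Drug-NIHL and 19.9% in NIHL over all cells. mt-Co2 and mt-Co3, core subunits of complex IV, followed with 15.8% and 16.2%, and with 11.8% and 11.5%. mt-Nd6, the single member read from the other strand, was the smallest at 0.0932% and 0.0880%. Neuron-like cells departed from the other classes in 2 components: mt-Nd2 took 4.65% of their mitochondrially encoded UMIs in Drug-NIHL and 4.46% in NIHL, and mt-Atp8 0.953% and 0.857%, against 6.23% and 5.97%, and 1.52% and 1.51%, over all cells.

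Several of these genes overlap on the chromosome, so that a read end can belong to a pair of them. In GRCm38, mt-Atp8 (chrM:7766-7969) and mt-Atp6 (chrM:7927-8607) share 43 bases on the same strand, mt-Nd4l (chrM:9877-10173) and mt-Nd4 (chrM:10167-11544) share 7, mt-Atp6 and mt-Co3 (chrM:8607-9390) share 1, and mt-Nd5 (chrM:11742-13565) and mt-Nd6 (chrM:13552-14070) share 14 on opposite strands. The split of counts within these pairs is uncertain. Ratios that differ within a pair are therefore not read as differences between separate messengers. The bases shared by the complex V pair are shown because they hold the start codon of one gene and the stop codon of the other, both in capitals:

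mt-Atp8 and mt-Atp6, chrM:7927-7969, plus strand: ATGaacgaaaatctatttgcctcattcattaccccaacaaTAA

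Over all cells, mitochondrially encoded RNA was higher in Drug-NIHL and nuclear-encoded RNA of the same complexes was slightly lower. The mitochondrially encoded sum was 56951 CPM in Drug-NIHL and 44790 CPM in NIHL, a ratio of 1.27 (1.269 to 1.274). The nuclear sum was 37081 CPM in Drug-NIHL and 38433 CPM in NIHL, a ratio of 0.965 (0.962 to 0.967). The number of mitochondrially encoded UMIs per nuclear member UMI was thus 1.54 in Drug-NIHL and 1.17 in NIHL. Per cell, the mitochondrially encoded sum was 102.2 UMIs in Drug-NIHL and 89.6 UMIs in NIHL, a ratio of 1.14 (1.138 to 1.143), and the nuclear sum 66.5 and 76.9 UMIs, a ratio of 0.865 (0.863 to 0.867). Mean depth was 1794 UMIs per cell in Drug-NIHL and 2001 in NIHL. The intervals of the 2 genomes did not overlap on either scale.

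The same held in each complex. In complex I, the 7 mitochondrially encoded genes had 17384 CPM in Drug-NIHL and 13288 CPM in NIHL, a ratio of 1.31, and the 36 nuclear ones 11644 and 12136 CPM, a ratio of 0.959. In complex III, mt-Cytb had 5705 CPM in Drug-NIHL and 4747 CPM in NIHL, a ratio of 1.20, and the nuclear members 3904 and 4007 CPM, a ratio of 0.974. In complex IV, the ratios were 1.28 for the mitochondrially encoded core (21938 CPM in Drug-NIHL, 17147 CPM in NIHL) and 0.971 for the nuclear members (11627 and 11977 CPM). In complex V, they were 1.24 (11923 and 9608 CPM) and 0.960 (9859 and 10273 CPM). Complex I thus had the highest mitochondrially encoded ratio and complex III the lowest, while the nuclear ratios of the 4 complexes lay between 0.959 and 0.974. Per cell, the mitochondrially encoded ratios were 1.17, 1.08, 1.15 and 1.11 for complexes I, III, IV and V, and the nuclear ones 0.860, 0.874, 0.871 and 0.861.

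A gene is called lower or higher below where its CPM ratio of Drug-NIHL over NIHL was at most 0.8 (lower) or at least the inverse of 0.8 (higher), a description of size. Of all 17284 genes measured over all cells, 12.2% were higher and 9.38% lower by this rule. Of the 13 mitochondrially encoded genes, 10 were higher and 0 lower, with a median ratio of 1.31, against 0.980 for all genes. Of the 79 measured nuclear members, 1 was higher and 1 lower, with a median ratio of 0.962. Both shares of nuclear members were below the share of all genes. By UMIs per cell, 1 nuclear member passed the upper fold and 8 the lower one, against 7.68% and 21.9% of all genes. These shares were also below those of all genes. However, the measured genes include many with few UMIs, whose ratios can pass a fold by counting error alone. The members were not compared with genes of similar UMI counts. The lower shares can therefore not be read as a property of the nuclear members. The same limit holds for the shares of all genes given for single classes below.

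**Figure D2:**
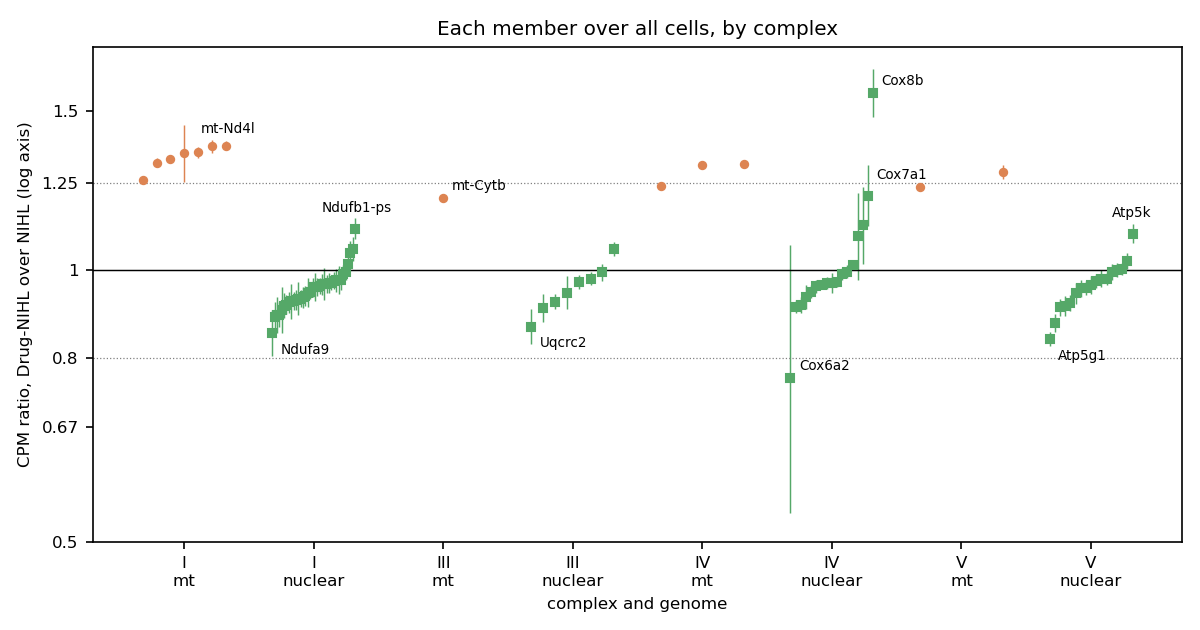
CPM ratio of Drug-NIHL over NIHL (vertical log axis) for each measured member over all cells, ordered within complex and genome, with circles for mitochondrially encoded and squares for nuclear genes and bars for the exact 95% counting interval; Ndufa4l2 is not drawn. The circles lie from 1.20 (mt-Cytb) to 1.37 (mt-Nd4l), the squares mostly just below 1, and dotted lines mark 0.8 and its inverse.

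Among the mitochondrially encoded subunits of complex I, which form its membrane arm, mt-Nd4l had 2341 CPM in Drug-NIHL and 1705 CPM in NIHL (ratio 1.37, 1.36 to 1.39). mt-Nd3 had 968 CPM in Drug-NIHL and 705 CPM in NIHL (1.37, 1.35 to 1.40). mt-Nd5 had 1404 and 1039 CPM (1.35, 1.33 to 1.37). The others had ratios of 1.35 for mt-Nd6 (53.1 CPM in Drug-NIHL, 39.4 CPM in NIHL), 1.33 for mt-Nd2 (3546 and 2673 CPM), 1.32 for mt-Nd1 (2457 and 1867 CPM) and 1.26 for mt-Nd4 (6616 and 5260 CPM), so that all 7 were past the upper fold. mt-Nd6 is transcribed from the opposite strand of the genome, and its interval of 1.253 to 1.449 held the ratios of the other 6.

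In complex IV, mt-Co3 had 6718 CPM in Drug-NIHL and 5130 CPM in NIHL (1.31, 1.30 to 1.32), and mt-Co1, the subunit that binds oxygen, 6204 and 4749 CPM (1.31, 1.30 to 1.32). mt-Co2, which accepts electrons from cytochrome c, had 9016 CPM in Drug-NIHL and 7268 CPM in NIHL (1.241, 1.234 to 1.247) and fell just short of the upper fold. In complex V, mt-Atp6 had 11056 and 8932 CPM (1.24, 1.23 to 1.24) and mt-Atp8 867.6 and 676 CPM (1.28, 1.26 to 1.31). The 4 lowest ratios of the 13 belonged to mt-Cytb, mt-Atp6, mt-Co2 and mt-Nd4, which were all among the 6 most abundant. Every one of the 13 was found in a larger share of cells in Drug-NIHL: mt-Nd1 in 93.6% against 86.8% in NIHL, and mt-Nd3 in 72.3% against 61.9%.

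Of the nuclear members of complex I, none passed either fold over all cells. Ndufb1-ps (chr12:101968090-101977068, minus strand), whose symbol marks it as a pseudogene, had the highest ratio, with 350 CPM in Drug-NIHL and 315 CPM in NIHL (1.11, 1.08 to 1.14). Ndufa3, an accessory subunit, followed with 277 and 262 CPM (1.06, 1.02 to 1.09). The lowest was Ndufa9 (chr6:126821721-126849136, minus strand), an accessory subunit at the junction of both arms, with 63.8 CPM in Drug-NIHL and 74.95 CPM in NIHL (0.851, 0.803 to 0.903). Ndufs3, a core subunit of the matrix arm, had 154 and 174 CPM (0.886, 0.853 to 0.921). The most abundant members sat closer to 1: Ndufa13 (756 CPM in Drug-NIHL, 782 CPM in NIHL, ratio 0.967), Ndufb9 (623 and 659 CPM, 0.946) and Ndufs5 (544 and 567 CPM, 0.960).

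In complex III, Uqcr11 had 768 CPM in Drug-NIHL and 728 CPM in NIHL (1.05, 1.04 to 1.07), and Uqcrb, which binds ubiquinone, 495 and 498 CPM (0.995, 0.973 to 1.02). The lowest ratio was that of Uqcrc2 (chr7:120635176-120659524, plus strand), a core protein, with 111 CPM in Drug-NIHL and 128 CPM in NIHL (0.866, 0.828 to 0.905). Uqcrfs1, the Rieske iron-sulphur protein that moves electrons to cytochrome c1, had 171 and 189 CPM (0.908, 0.876 to 0.941). The abundant Uqcrh and Uqcr10 had ratios of 0.978 (829 CPM in Drug-NIHL, 847 CPM in NIHL) and 0.970 (740 and 763 CPM). Uqcrc2 and Uqcrfs1 were thus the lowest of the 8 members, and all but Uqcr11 were below 1.

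In complex V, Atp5k, a subunit that helps the enzyme to pair, had 435 CPM in Drug-NIHL and 396 CPM in NIHL (1.097, 1.07 to 1.12), and Atp5mpl 534 and 522 CPM (1.02, 1.002 to 1.045). The lowest was Atp5g1 (chr11:96068852-96075670, minus strand), a copy of the gene for the rotor ring, with 654 CPM in Drug-NIHL and 780 CPM in NIHL (0.838, 0.823 to 0.853). Its paralogs Atp5g2 (506 CPM in Drug-NIHL, 530 CPM in NIHL) and Atp5g3 (479 and 490 CPM), which encode the same mature ring protein, had ratios of 0.955 and 0.978. Atp5f1, of the peripheral stalk, had 399 and 457 CPM (0.873, 0.853 to 0.894). The 3 most abundant, Atp5e (944 CPM in Drug-NIHL, 942 CPM in NIHL), Atp5j (837 and 861 CPM) and Atp5l (837 and 855 CPM), had ratios of 1.003, 0.973 and 0.978.

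In complex IV, the most abundant nuclear members differed little: Cox8a had 1965 CPM in Drug-NIHL and 2040 CPM in NIHL (0.963), Ndufa4 1528 and 1577 CPM (0.969), and Cox6c 1473 and 1453 CPM (1.01). Cox5a, which lies on the matrix side, had 897 CPM in Drug-NIHL and 985 CPM in NIHL (0.911, 0.897 to 0.926), and Cox7b 507 and 554 CPM (0.915, 0.896 to 0.935). The members with the largest and the smallest ratio were isoforms of a few cell classes. Cox8b had 82.4 CPM in Drug-NIHL and 52.5 CPM in NIHL (1.57, 1.48 to 1.67) and was the single nuclear member past the upper fold. Cox7a1 had 44.9 CPM in Drug-NIHL and 37.2 CPM in NIHL (1.21, 1.12 to 1.31). Cox6a2, with 64 UMIs in Drug-NIHL and 81 UMIs in NIHL (0.759, 0.538 to 1.07), was the single one past the lower fold, and its interval held 1.

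Promoters are shown for 3 complex IV members of different kinds: Cox6a1, a widely expressed subunit whose promoter held motifs of both regulators known to drive respiratory genes, and the paralog pair Cox8a and Cox8b. Each is the 250 bases before the start site in RefSeq on GRCm38.p6, read on the gene's strand, which is minus for all of them. Both strands were searched. Capitals mark the NRF-1 motif, which is the first run of capitals in Cox6a1 and reads the same on both strands, and the GABPA motif CCGGAAG, which is the second run and lies on the opposite strand.

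Cox6a1, chr5:115348959-115349208: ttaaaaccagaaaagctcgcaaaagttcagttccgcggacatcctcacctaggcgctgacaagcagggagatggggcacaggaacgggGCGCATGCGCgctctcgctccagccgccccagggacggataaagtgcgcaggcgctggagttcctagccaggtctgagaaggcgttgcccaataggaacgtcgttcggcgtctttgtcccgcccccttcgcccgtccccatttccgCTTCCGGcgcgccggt
Cox8a, chr19:7217617-7217866: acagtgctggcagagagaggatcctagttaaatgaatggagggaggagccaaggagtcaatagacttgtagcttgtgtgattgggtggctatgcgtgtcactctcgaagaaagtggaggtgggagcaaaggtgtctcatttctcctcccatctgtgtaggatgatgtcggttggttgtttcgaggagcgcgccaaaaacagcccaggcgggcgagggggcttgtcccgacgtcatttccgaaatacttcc
Cox8b, chr7:140900447-140900696: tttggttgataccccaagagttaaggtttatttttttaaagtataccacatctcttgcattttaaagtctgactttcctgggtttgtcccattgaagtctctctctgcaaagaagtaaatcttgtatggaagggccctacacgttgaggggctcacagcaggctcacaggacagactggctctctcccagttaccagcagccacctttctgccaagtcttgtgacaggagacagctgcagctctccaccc

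The Cox6a1 sequence holds 26 CpG dinucleotides, that of Cox8a 11 and that of Cox8b 1, and neither Cox8a nor Cox8b holds the letters of these motifs in this window. Of the 81 nuclear members, 64 had a RefSeq promoter in the table used. The NRF-1 motif was in 4 of the 64 (6.25%: Atp5g2, Atp5k, Cox6a1 and Ndufa11), against 0.781% of 27025 promoters of the same length. The GABPA motif was in 10 (15.6%), against 7.05%, and the motif TCAAGGTCA of the oestrogen-related receptors in 1 (1.56%, Atp5g3), against 0.366%. None of these motifs contains another. A match is a string of letters and not a measured binding site.

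The isoforms marked separate cell types in both libraries. Cox4i2, the hypoxia- and lung-linked form of the largest nuclear subunit of complex IV, was concentrated in pericyte-like cells, with 482 CPM in Drug-NIHL and 623 CPM in NIHL, a ratio of 0.774 (0.673 to 0.891). Vascular smooth muscle-like cells had 251 and 312 CPM (0.803, 0.663 to 0.973). The next highest, hair cell-like cells, had 21.3 and 33.7 CPM, from 8 and 11 UMIs. A Cox4i2 UMI was found in 32.6% of pericyte-like cells in Drug-NIHL and 44.5% in NIHL, at median depths of 770 and 897 UMIs, and in 30.4% and 42.0% of those thinned to 1000 UMIs each. In Schwann or satellite glia-like cells, taken as background, the shares were 0.304% and 0.0913% at 693 and 766 UMIs. Over all cells its level was 26.6 CPM in Drug-NIHL and 23.7 CPM in NIHL, a ratio of 1.12, above 1 while both mural classes were below it, and pericyte-like cells made up 5.49% of Drug-NIHL cells and 3.65% of NIHL cells.

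Ndufa4l2, which is known to be induced by low oxygen in other cells, followed Cox4i2. Pericyte-like cells had 1066 CPM in Drug-NIHL and 1321 CPM in NIHL (0.807, 0.735 to 0.888), and a UMI was found in 55.9% and 68.3% of them, against 0.329% and 0.259% of Schwann or satellite glia-like cells. Vascular smooth muscle-like cells had 309 CPM in Drug-NIHL and 365 CPM in NIHL (0.845, 0.709 to 1.01). It was among the leading genes of the main pericyte-like cluster. Its paralog Ndufa4 was lowest of the 18 classes in pericyte-like cells, at 337 CPM in Drug-NIHL and 263 CPM in NIHL, and highest in neuron-like cells, at 4819 and 4818 CPM. In pericyte-like cells Ndufa4 had a ratio of 1.29 (1.06 to 1.57), while Ndufa4l2 and Cox4i2 were below 1.

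Cox8b (chr7:140898945-140900446, minus strand), the form of the smallest subunit known from heart and skeletal muscle, was concentrated in the stria vascularis. Strial intermediate cell or melanocyte-like cells had 1103 CPM in Drug-NIHL and 974 CPM in NIHL (1.13, 1.04 to 1.23), and a UMI in 71.7% and 70.8% of cells at median depths of 1421 and 1654 UMIs. Macrophage-like cells, taken as background and of greater depth (1704.5 and 2221 UMIs), had one in 3.19% and 1.61%. Strial marginal cell-like cells had 361 CPM in Drug-NIHL and 356 CPM in NIHL (1.02, 0.821 to 1.26), so that the largest sources of Cox8b differed little between libraries. The classes where it was scarce had the high ratios: endothelial cell-like cells had 22.3 CPM in Drug-NIHL and 7.43 CPM in NIHL (3.003, 1.64 to 5.87), and Schwann or satellite glia-like cells 27.1 and 12.9 CPM (2.10, 1.52 to 2.91). In fibrocyte-like cells Cox8b had 35.2 CPM in Drug-NIHL and 19.8 CPM in NIHL (1.77, 1.30 to 2.45), but in cluster 8 of that class, which gave most of its UMIs, it had 50.7 and 71.7 CPM. A single strial intermediate cell or melanocyte-like cluster held 54.9% of all Cox8b UMIs in each library, and that class made up 4.38% of Drug-NIHL cells and 2.90% of NIHL cells.

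Cox7a1, another form known from muscle, was most abundant in strial marginal cell-like cells, with 530 CPM in Drug-NIHL and 582 CPM in NIHL (0.911, 0.770 to 1.08). Organ of Corti supporting cell-like cells had 158 CPM in Drug-NIHL and 206 CPM in NIHL (0.765, 0.634 to 0.922). Fibrocyte-like cells, of the kind that returns potassium through the lateral wall, had 46.2 CPM in Drug-NIHL and 18.1 CPM in NIHL (2.55, 1.87 to 3.52), or 193 and 53 UMIs. The fibrocyte-like class was made of 3 clusters in unequal shares: cluster 8 held 954 of the cells in Drug-NIHL and 225 in NIHL, and had 83.5 and 37.6 CPM. The difference in Cox7a1 was therefore also present inside 1 cluster.

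Cox6b2, a form known from testis, had 36.7 CPM in Drug-NIHL and 146 CPM in NIHL in ependymal or choroid plexus-like cells (0.251, 0.133 to 0.441), or 14 and 106 UMIs. In strial intermediate cell or melanocyte-like cells it had 50.0 and 21.6 CPM (2.32, 1.41 to 3.98). Cox6a2, known from heart and muscle, came mostly from 1 T or NK cell-like cluster, which held 39 of its 64 UMIs in Drug-NIHL and 47 of its 81 in NIHL. That cluster had 99 NIHL cells and was not compared. The common paralogs Cox4i1, Cox6a1, Cox6b1, Cox7a2, Cox7a2l and Cox8a had ratios over all cells of 0.967, 0.968, 0.959, 0.996, 0.933 and 0.963.

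**Figure D3:**
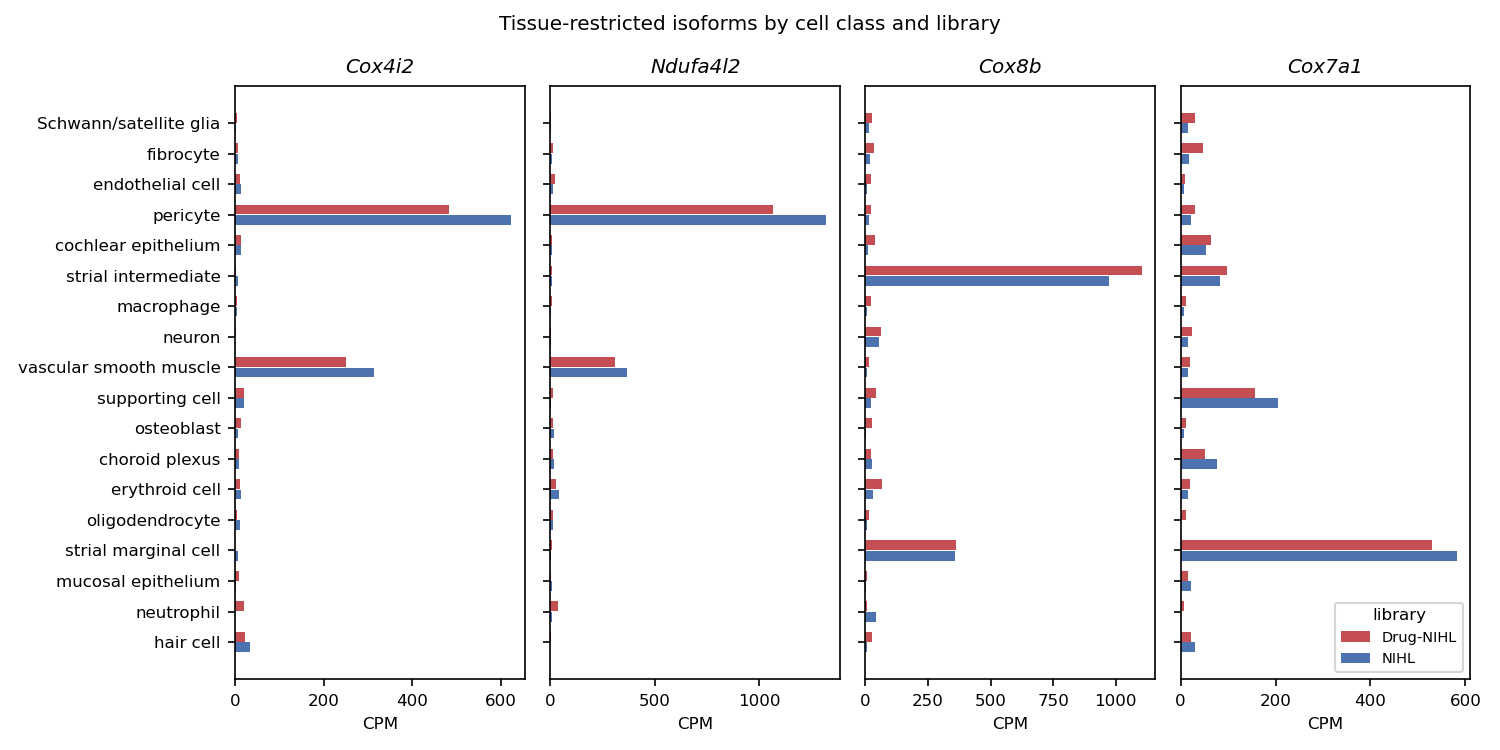
CPM (horizontal axes, each from 0) of 4 complex IV isoforms and relatives in 18 marker-named classes, with 1 bar per library. Cox4i2 and Ndufa4l2 stand out in pericyte-like and vascular smooth muscle-like cells, Cox8b in strial intermediate cell or melanocyte-like cells, with 1103 CPM in Drug-NIHL and 974 CPM in NIHL, and Cox7a1 in strial marginal cell-like cells.

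By class, the mitochondrially encoded sum was higher in Drug-NIHL in most cell types and the nuclear sum was not. Its CPM ratio had an interval above 1 in 16 of the 18 classes and below 1 in 2, passed the upper fold in 9, and had a median over classes of 1.248. The ratio was 1.64 (1.61 to 1.66) in oligodendrocyte-like, 1.56 (1.55 to 1.57) in fibrocyte-like, 1.52 (1.51 to 1.54) in endothelial cell-like and 1.49 (1.47 to 1.51) in macrophage-like cells. The exceptions were strial marginal cell-like cells, at 0.964 (0.951 to 0.977), and mucosal or stratified epithelium-like cells, at 0.955 (0.941 to 0.969). Of the other 16, the ependymal or choroid plexus-like class was at 1.03 but at 0.857 with other scaling of the libraries (TMM or RLE factors). For the nuclear sum the ratio lay from 0.9 to 1.1 in 14 classes, with a median over classes of 0.999. The mitochondrially encoded ratio was above the nuclear one in 15 of 18 classes, and in every complex in 14 of 18. Of the 234 pairs of a mitochondrially encoded gene and a class, 209 had a ratio above 1. Complex I had the highest of the 4 mitochondrially encoded ratios in 12 classes and complex III the lowest in 10.

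Counted per cell, the picture was different, because cells of nearly every class held fewer UMIs in Drug-NIHL. Mitochondrially encoded UMIs per cell had a ratio with an interval above 1 in 10 classes and below 1 in 7, with a median of 1.05. Schwann or satellite glia-like cells had 71.96 UMIs per cell in Drug-NIHL and 54.95 in NIHL (1.31, 1.30 to 1.32), and fibrocyte-like cells 87.3 and 68.2 (1.28, 1.27 to 1.29). Organ of Corti supporting cell-like cells had 156.2 UMIs per cell in Drug-NIHL and 223.7 in NIHL (0.698, 0.691 to 0.705). Nuclear member UMIs per cell were lower in Drug-NIHL in 16 classes, with a median ratio of 0.8. They were higher in neutrophil-like cells, at 39.5 UMIs per cell in Drug-NIHL and 22.4 in NIHL (1.77, 1.69 to 1.84), the class that was also deeper in Drug-NIHL.

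**Figure D4:**
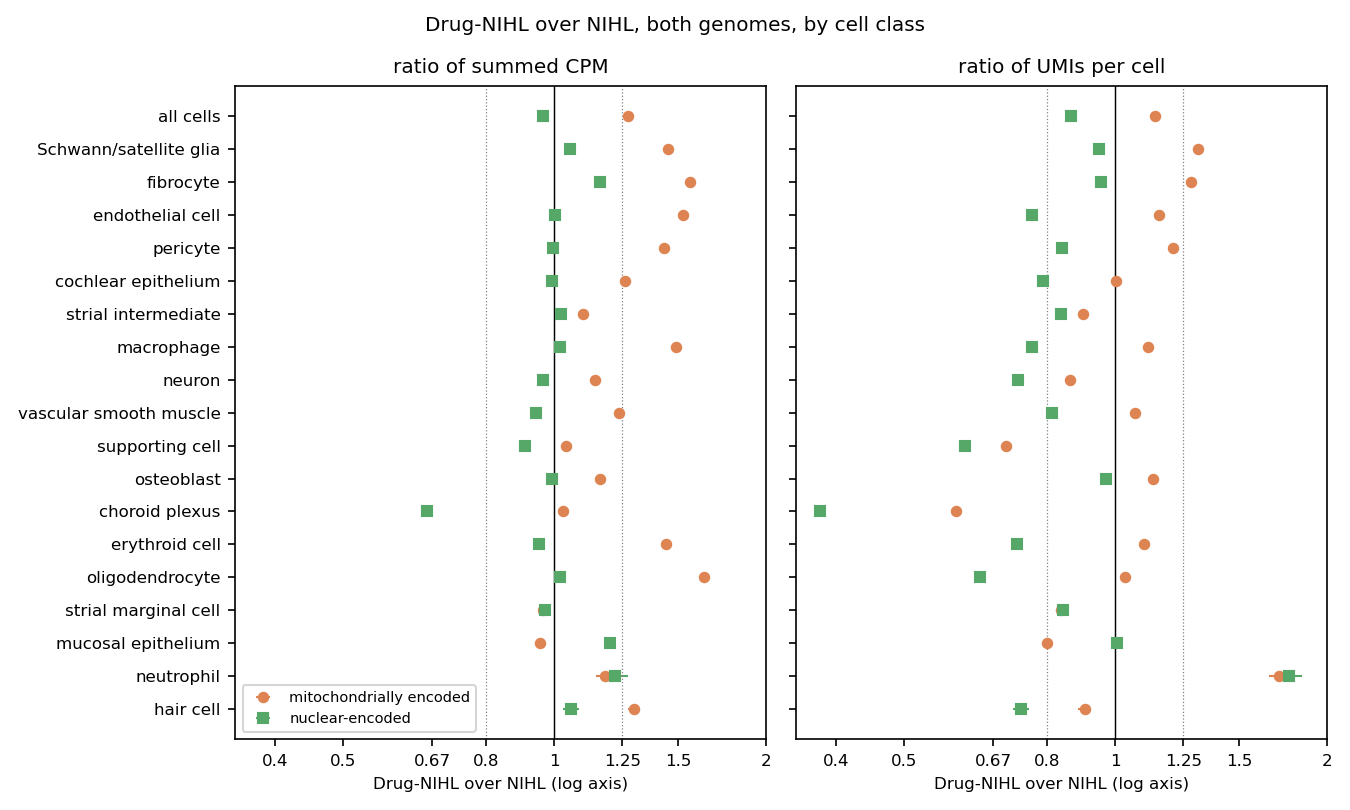
Ratio of Drug-NIHL over NIHL (horizontal log axes) of the summed CPM (left) and of UMIs per cell (right) for both genomes in all cells and in 18 marker-named classes, with bars for the exact 95% counting interval, mostly hidden by the symbols, and dotted lines at 0.8 and its inverse. Circles (mitochondrially encoded) lie right of squares (nuclear) in 15 of 18 classes on the left, from 0.955 to 1.64.

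Single members were counted in the 6 classes with the most cells, and the number of mitochondrially encoded genes past the upper fold ran from 2 to 13 of 13 among these classes. In Schwann or satellite glia-like cells all 13 mitochondrially encoded genes were higher, against 12.4% of all genes measured there (16.0% were lower). mt-Nd5 led with 2350 CPM in Drug-NIHL and 1470 CPM in NIHL (1.60). The nuclear sum had 28501 CPM in Drug-NIHL and 27068 CPM in NIHL (1.05, 1.04 to 1.06), and 4 of 77 measured nuclear members were higher and 0 lower. Among those with at least 200 UMIs in both libraries together, Atp5mpl had the highest ratio, with 399 and 310 CPM (1.29, 1.20 to 1.38), and Ndufs8, a core subunit that carries iron-sulphur clusters, the lowest, with 79.8 and 99.5 CPM (0.802, 0.688 to 0.933).

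In fibrocyte-like cells all 13 were also higher, against 16.9% of all genes (20.2% were lower), and mt-Nd4l led with 2412 CPM in Drug-NIHL and 1398 CPM in NIHL (1.73). Of these 6 classes it also had the most nuclear members past the upper fold, 16 of 78 against 1 past the lower one, a share of 20.5% beside the 16.9% of all genes. Cox5a had 340 CPM in Drug-NIHL and 222 CPM in NIHL (1.53, 1.40 to 1.69), and Uqcr10 580 and 430 CPM (1.35, 1.26 to 1.45). The lowest with at least 200 UMIs was Cox7a2l, which takes part in joining complexes III and IV, with 241 and 277 CPM (0.870, 0.792 to 0.955). The nuclear sum had a ratio of 1.16 (1.15 to 1.17) in the class, against 1.14 in cluster 8, 0.990 in cluster 4 and 1.01 in cluster 10. Cluster 8, which held 954 of the 2766 cells in Drug-NIHL and 225 of 1589 in NIHL, had the highest nuclear level of the 3, at 34694 and 30320 CPM. The mitochondrially encoded ratio was 1.36, 1.53 and 1.61 in clusters 8, 4 and 10.

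In endothelial cell-like cells 13 of 13 mitochondrially encoded genes were higher (15.2% of all genes higher, 13.5% lower), with mt-Nd4l at 1760 CPM in Drug-NIHL and 969 CPM in NIHL (1.82). Their nuclear sum was 23339 CPM in Drug-NIHL and 23265 CPM in NIHL (1.003, 0.991 to 1.02), with 3 of 77 members higher and 1 lower. Atp5mpl was again highest among members with at least 200 UMIs, at 220 and 179 CPM (1.23, 1.07 to 1.42), and Ndufa9 lowest, at 49.3 and 62.1 CPM (0.795, 0.609 to 1.04). In pericyte-like cells 12 of 13 were higher (20.6% of all genes higher, 20.7% lower), and 6 of 78 nuclear members were higher and 4 lower. Ndufa3 had 186 CPM in Drug-NIHL and 135 CPM in NIHL there (1.37, 1.05 to 1.81), and Cox4i2 was lowest.

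In other cochlear epithelium-like cells 9 of 13 mitochondrially encoded genes were higher (17.1% of all genes higher, 17.1% lower), and 1 of 76 nuclear members was higher and 1 lower. Uqcrh had 773 CPM in Drug-NIHL and 672 CPM in NIHL (1.15, 1.05 to 1.26), and Ndufs7, of the matrix arm of complex I, 238 and 280 CPM (0.852, 0.731 to 0.994). Per cell, their mitochondrially encoded sum was 100.2 UMIs in Drug-NIHL and 100.1 in NIHL (1.001, 0.990 to 1.01), so the difference in CPM had no counterpart per cell. In strial intermediate cell or melanocyte-like cells 2 of 13 were higher (18.6% of all genes higher, 18.1% lower), mt-Nd3 and mt-Nd6, and 3 of 77 nuclear members were higher and 2 lower. Ndufb6 had 301 CPM in Drug-NIHL and 222 CPM in NIHL there (1.36, 1.15 to 1.61), and Uqcrc2 87.2 and 128 CPM (0.679, 0.525 to 0.878).

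Of the classes of the hearing organ itself, hair cell-like cells (167 in Drug-NIHL, 101 in NIHL) had a mitochondrially encoded sum of 57789 CPM in Drug-NIHL and 44489 CPM in NIHL (1.30, 1.27 to 1.33). Their nuclear sum was 33150 and 31412 CPM (1.06, 1.03 to 1.08). Per cell, both were lower in Drug-NIHL, at 130.1 against 143.9 mitochondrially encoded UMIs in NIHL and 74.7 against 101.6 nuclear ones. In neuron-like cells, the mitochondrially encoded ratio was 1.14 (1.14 to 1.15) in CPM and 0.863 (0.857 to 0.869) per cell. Organ of Corti supporting cell-like cells were of 2 clusters with opposite values: cluster 23 had 45525 mitochondrially encoded CPM in Drug-NIHL and 33207 CPM in NIHL (1.37, 1.35 to 1.39), and cluster 27, led by Fxyd2 and Kcnk2, 72857 and 82199 CPM (0.886, 0.875 to 0.898). Their nuclear ratios were 1.02 and 0.846. The class ratio of 1.04 is thus a mixture of unlike clusters.

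Ependymal or choroid plexus-like cells were the single class with a nuclear sum past the lower fold, at 33871 CPM in Drug-NIHL and 51397 CPM in NIHL (0.659, 0.646 to 0.672), while their mitochondrially encoded sum was 61933 and 60127 CPM (1.03, 1.01 to 1.05). Both ratios depended on the scaling. With TMM factors the nuclear ratio was 0.549 and the mitochondrially encoded one 0.857. With a limit of 10% mitochondrial UMIs they were 0.669 and 0.935, and as means of each cell's CPM 0.835 and 1.34. Of all 6342 genes measured in this class, 46.5% were higher and 20.8% lower, with a median CPM ratio of 1.20. Mean depth in this class was 1403 UMIs per cell in Drug-NIHL and 2438 in NIHL. Among cells with fewer than 1000 UMIs the nuclear ratio was 0.890, and among those with 1000 to under 2000 UMIs it was 1.04. Within these ranges the difference was thus smaller or absent. Deeper ranges had fewer than 20 cells in a library and were not compared. In NIHL the nuclear sum was 32479 and 30358 CPM in the ranges compared. The 51397 CPM of the class therefore came from its deeper cells, and the ranges do not show that depth accounts for the class ratio. Of 37 clusters with at least 20 cells in each library, the mitochondrially encoded ratio was above 1 in 34 and past the upper fold in 25. The 3 below 1 were the marginal, the mucosal and the Fxyd2-led supporting cluster.

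Depth moved with the mitochondrially encoded ratio. Over all cells with fewer than 1000 UMIs, the mitochondrially encoded sum was 90054 CPM in Drug-NIHL and 66317 CPM in NIHL (1.36). With 1000 to under 2000 UMIs it was 67195 and 51586 CPM (1.30), with 2000 to under 4000 UMIs 51994 and 43979 CPM (1.18), and with 4000 UMIs or more 34241 and 33221 CPM (1.03). Over all cells, both the mitochondrially encoded sum and its ratio between libraries were thus higher in each shallower range. Single classes departed from this order: macrophage-like cells had a ratio of 1.05 in the shallowest range and 1.5045 in the next, and vascular smooth muscle-like cells 1.0997 and 1.26. Within classes that had at least 20 cells of each library in a depth range, the ratio was above 1 in 14 of 14, 15 of 15, 14 of 15 and 6 of 12 classes from the shallowest range to the deepest, with medians of 1.42, 1.26, 1.15 and 1.06. In fibrocyte-like cells the ratio was 1.47, 1.47, 1.46 and 1.22 across these ranges. Endothelial cell-like cells had 1.52, 1.254, 1.29 and 1.27, and strial intermediate cell or melanocyte-like cells 1.23, 1.03, 1.02 and 0.911.

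The nuclear ratio was 1.04, 1.04, 1.06 and 1.02 in the same ranges. It was thus above 1 in every range although it was 0.965 over all cells. The deepest cells had the highest nuclear sum, at 54675 CPM in Drug-NIHL and 53635 CPM in NIHL, and were 1381 of the 18622 Drug-NIHL cells and 1603 of the 16038 NIHL cells. With all classes pooled, the lower nuclear sum was therefore not present within any depth range. The higher mitochondrially encoded sum was present in all 4, with the smallest ratio in the deepest cells. Within classes, the nuclear ratio was above 1 in 33 of 56 pairs of a class and a range, against 49 of 56 for the mitochondrially encoded one. Its medians over classes were 1.01, 1.04, 1.03 and 1.0 from the shallowest range to the deepest.

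**Figure D5:**
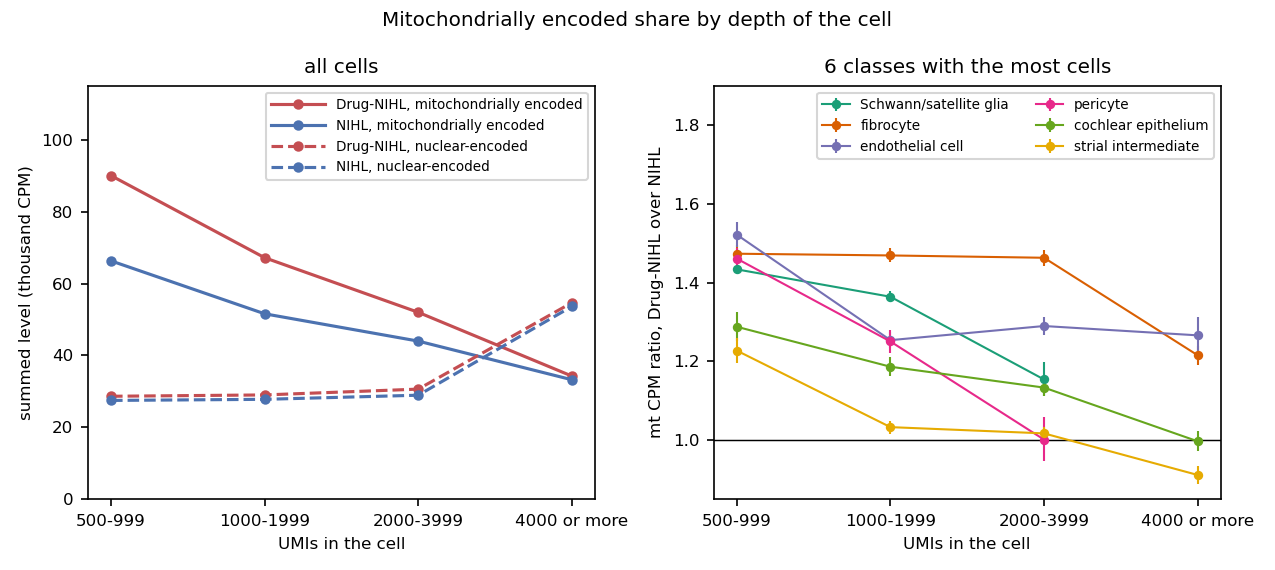
Left, summed CPM divided by 1000 of mitochondrially encoded (solid) and nuclear (dashed) members over all cells in 4 ranges of UMIs per cell, 1 line per library and genome; right, mitochondrially encoded CPM ratio of Drug-NIHL over NIHL in the 6 classes with the most cells, with exact 95% counting intervals, where a range had at least 20 cells in each library. The libraries are farthest apart below 1000 UMIs (90054 CPM in Drug-NIHL, 66317 CPM in NIHL) and close together above 4000 UMIs.

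Genes that build, supply or regulate the chain were near or below 1 over all cells. The list of complex II and the electron carriers, all nuclear, had a median ratio of 0.899, with 0 of 10 past either fold. It also held Cyc1 and Ndufab1, subunits of complexes III and I that the symbol rule for members did not match. Sdhb, the iron-sulphur subunit of complex II, had 177 CPM in Drug-NIHL and 203 CPM in NIHL (0.872), Cycs, cytochrome c, 310 and 340 CPM (0.909), and Cyc1, cytochrome c1, 179 and 201 CPM (0.889). The citric acid cycle had a median of 0.916 (0 of 13 past either fold) and the proteins of the mitochondrial ribosome one of 0.935 (0 of 78). Assembly factors of complex I had a median of 0.936 (0 of 14) and those of complexes III, IV and V one of 0.970, where 1 of 29 was lower, Atpaf1, an assembly factor of the ATP synthase, with 29.1 CPM in Drug-NIHL and 38.1 CPM in NIHL (0.762, 0.700 to 0.830).

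Genes that copy, transcribe or process the mitochondrial genome had a median of 0.957, with 1 of 31 higher and 0 lower. Fastkd5, which acts in mitochondrial RNA processing, was the higher one, with 2.84 CPM in Drug-NIHL and 2.18 CPM in NIHL (1.30, 0.947 to 1.80). Tfam, which packages and transcribes the mitochondrial genome, had 25.6 and 27.1 CPM (0.946, 0.860 to 1.04), and Polrmt, the mitochondrial RNA polymerase, 6.38 and 6.30 CPM (1.01, 0.831 to 1.23). Among 11 regulators of mitochondrial biogenesis, with a median of 0.971, none passed either fold. Ppargc1a had 66.1 CPM in Drug-NIHL and 69.7 CPM in NIHL (0.947, 0.893 to 1.01) and Nrf1, which encodes the factor of the motif searched above, 17.8 and 16.0 CPM (1.11, 0.985 to 1.251). Over all cells, none of these medians reached that of the mitochondrially encoded genes. Within classes the lists varied: in Schwann or satellite glia-like cells 4 of 10 measured biogenesis regulators were higher and 1 lower, against 12.4% and 16.0% of all genes. Their median was 1.17 and their summed ratio 1.14 (1.05 to 1.23). In fibrocyte-like cells 8 of 30 genes of mitochondrial genome expression were higher and 4 lower, against 16.9% and 20.2% of all genes, with a median of 1.09. Some genes of these lists had few UMIs even over all cells (Ppara 94 in Drug-NIHL and 93 in NIHL), which limits such counts. The 4 haemoglobin genes measured had a median of 1.43 and were all higher, and Malat1 had 46319 CPM in Drug-NIHL and 40756 CPM in NIHL (1.14). The haemoglobin ratios include erythroid cell-like cells, which made up 2.54% of Drug-NIHL cells and 1.66% of NIHL cells.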

How the data were processed

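Dissociated mouse cochlear tissue was profiled by droplet single-cell RNA sequencing (10x Genomics 3′ kit, version 3.1, per the labels' protocols) in 2 libraries. The deposited values are raw UMI counts per gene and barcode, made by the authors with Cell Ranger 5.0 (5.0.1 per the file headers), STAR, mm10 and GRCm38, per the submitters' processing notes, which also name Seurat 3.2.2. Of the annotation, the sources used here name nothing. Gene positions come from GENCODE on GRCm38 and are those of the genes, not of the counted reads. All files held 32285 genes. The labels state roughly 20000 recovered cells, beside 21773 Drug-NIHL and 18545 NIHL barcodes.

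Cells were kept with at least 500 UMIs, at least 300 genes and at most 20% mitochondrial UMIs. The 8% of cells with the highest Scrublet scores in each library, 1511 in Drug-NIHL and 1385 in NIHL, were removed as likely doublets, since the automatic thresholds would have marked 2597 and 805. The libraries shared 111 barcodes, which were treated as separate cells. Cells were clustered with scanpy 1.11.5 and leidenalg 0.10.2 (3000 variable genes, 30 principal components, 15 neighbours, resolution 1, no integration). A cluster was named where at least 3 markers of a type were detected in at least 10% of its cells and at least 2 times higher than elsewhere. Where several types qualified, the one with the largest mean log fold of these markers was taken. That type also had to have more markers among the 10 leading genes of the cluster than every other type. Of 40 clusters, 8 stayed unnamed (2536 Drug-NIHL and 1685 NIHL cells). UMIs were summed per library and class, CPM was computed from these sums, and ratios carry exact conditional binomial intervals (scipy 1.17.1). The intervals were run on simulated Poisson counts, which follow the model they assume and hold no variation between cells or ears. That run is therefore no check of such variation in these data. The 3′ reads of a kit without length scaling do not support comparisons of levels between genes.

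The members and the gene and marker lists were chosen with earlier results of these data known. Named nuclear members were the 2 highest, the 2 lowest and the 3 most abundant of each complex, isoforms with their paralogs, and the highest and lowest in each of the 6 classes with the most cells, given at least 200 UMIs. Atp5g2, Atp5g3, the leading mitochondrially encoded gene of a class, other fibrocyte-like examples and the genes named from other lists were picked after their values were seen. Alternatives changed the filters, doublets, scaling (with edgeR 4.0.16 in R 4.3.3), weights of cells, clustering and depth. Figures were drawn with matplotlib 3.10.9.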

Additional observations from a re-analysis of the deposited data

Results flagged for a closer look

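Several Drug-NIHL over NIHL ratios lay on opposite sides of 1 in different cell classes. With 1 library per group these differences between classes were not tested. The mitochondrially encoded sum had its highest CPM ratio, 1.64, in oligodendrocyte-like cells and its lowest, 0.955, in mucosal or stratified epithelium-like cells. In the latter the ratio was 1.06 with 2000 to under 4000 UMIs per cell and 0.912 with 4000 or more. The nuclear sum had its highest ratio, 1.22, in neutrophil-like cells, with 17906 CPM in Drug-NIHL and 14660 CPM in NIHL, and its lowest, 0.659, in ependymal or choroid plexus-like cells.

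Single complex IV genes with a range of the same kind were mostly lowest in ependymal or choroid plexus-like cells. Cox4i1 had a ratio of 1.27 in mucosal or stratified epithelium-like cells and 0.664 in ependymal or choroid plexus-like cells. Cox6b1 had 1.29 and 0.785 in the same pair of classes. Cox6a1 had 1.36 in fibrocyte-like cells and 0.663 in ependymal or choroid plexus-like cells, and Cox8a 1.27 and 0.569. Ndufa4 had 1.82 in neutrophil-like cells, from 305 UMIs in Drug-NIHL and 56 in NIHL, and 0.495 in ependymal or choroid plexus-like cells, from 394 and 1515 UMIs. Cox7a1 had 2.55 in fibrocyte-like cells and 0.765 in organ of Corti supporting cell-like cells.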

How the results depend on the processing

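A ratio counted as reversed only where it was past 0.8 or its inverse as reported and on the other side of 1 under an alternative. None was, but ratios between these limits could not be counted as reversed. Some of them crossed 1, as the values below show. The values below are the mitochondrially encoded and the nuclear CPM ratio over all cells (1.27 and 0.965 as reported), the same per cell (1.14 and 0.865), and the classes past a ratio of 0.8 or its inverse (9 of 18 mitochondrially encoded, 1 of 18 nuclear). With no mitochondrial filter they were 1.27, 0.969, 1.13 and 0.865, with 10 and 1 of 17 classes, and with a limit of 10% they were 1.19, 0.974, 1.16 and 0.942, with 7 and 1 of 16. The nuclear class was the neutrophil-like one (1.252) with no filter and the ependymal or choroid plexus-like one (0.669) with the limit of 10%. With at least 1000 genes per cell they were 1.16, 0.978, 0.991 and 0.839, with 4 and 0 of 11 classes, so the higher mitochondrially encoded count per cell was not seen in these deeper cells. All deposited barcodes gave 1.28, 0.967, 1.14 and 0.857. Keeping likely doublets gave 1.27, 0.966, 1.14 and 0.865, with 11 and 1 of 17 classes, where the nuclear one was the mucosal or stratified epithelium-like class. CPM ratios were 1.29 and 0.977 scaled to nuclear-encoded UMIs of all genes, 1.30 and 0.986 with TMM factors, 1.30 and 0.985 with RLE factors, and 1.30 and 1.03 as means of each cell's CPM, where 13 classes passed for the mitochondrially encoded sum. Cluster weights of NIHL gave 1.33, 0.973, 1.06 and 0.776. Cells thinned to 1000 UMIs gave 1.26 and 1.02 on both scales, with 7 and 2 of 16 classes. The nuclear CPM ratio over all cells was thus on either side of 1 and within 0.8 and its inverse under these alternatives, while the nuclear ratio per cell was past 0.8 with NIHL weights. With resolution 0.5, resolution 2.0 or the members among the variable genes, 8 of 16, 11 of 17 and 10 of 17 classes passed for the mitochondrially encoded sum and 0 for the nuclear one. The ependymal or choroid plexus-like class had a nuclear ratio of 0.814 with resolution 0.5. It was not among the classes compared with resolution 2.0 or with the members among the variable genes.

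Alternatives chosen after seeing the data were the automatic doublet thresholds, with 1.29, 0.969, 1.12 and 0.835 and 11 and 0 of 17 classes, and the depth ranges, with mitochondrially encoded ratios of 1.36, 1.30, 1.18 and 1.03 and nuclear ratios of 1.04, 1.04, 1.06 and 1.02. With automatic thresholds the ependymal or choroid plexus-like class was not among those compared. In organ of Corti supporting cell-like cells the mitochondrially encoded ratio of 1.04 was 1.38 with no mitochondrial filter, 1.39 with doublets kept, 1.37 with resolution 2.0 or the members among the variable genes, and 1.44 with automatic thresholds. In these settings the class held 224 to 286 Drug-NIHL and 157 to 210 NIHL cells, against 460 and 355, so its make-up differed. Other causes were not tested. Of the ratios per complex and class, 557 stayed within their counting interval and 283 moved, and of those of named members 159 and 101. Among those past 0.8 or its inverse as reported, 0 were reversed, and the others could not be counted so. Isoform UMIs were few in many classes (14 and 106 for Cox6b2 in ependymal or choroid plexus-like cells), which limits those ratios. No paired analysis was possible because each group was 1 library.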
